A study of Mus musculus with 16 samples.

Results

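The 10 genes described here carry glucose into the cell, break it down to lactate and export the lactate, or set the pace of that route: Slc2a1, Hk2, Pfkfb3, Aldoa, Pgk1, Eno1, Pkm, Ldha, Slc16a3 and Hif1a. They were taken by symbol from the deposited gene table. All 10 were found among its 45777 listed genes, and all 10 were among the 19915 genes with enough reads to test. RNA was measured by polyA RNA sequencing of ear skin from C57BL/6 mice, and the titles mark every library as WT (wild type). The labels describe 16 libraries, and the table used here holds 6 of them, 3 from mice treated with anti-OSM, an antibody to the cytokine oncostatin M, and 3 from mice treated with anti-Ly6G, an antibody to a neutrophil surface protein. The other 10 libraries, of control ears and of ears given MC903 with no antibody, were not analysed here.

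Both antibody groups received MC903 (calcipotriol, a vitamin D analogue that inflames skin when painted on it) at 50 µM in 20 µL on both ears every day for 10 days. Anti-OSM, whose target is a relative of interleukin 6, was injected intradermally, with 20 µg for each mouse on alternate days. Anti-Ly6G was given into the peritoneal cavity at 200 µg per mouse 2 days before MC903 and again 1 and 4 days after it. The labels used here name no isotype antibody, age, sex or batch for these mice. Antibody, route and schedule differed together and cannot be told apart, and with no ears given MC903 alone, a gene called lower with anti-OSM is lower only relative to anti-Ly6G. Whether the 3 libraries of a group are 3 mice is not stated in the labels, and the spread that p-values rest on may be technical. Read counts ran from 52163179 to 64122588 per library, and 3 counts, taken as the floor of detection, corresponded to at most 0.0575 CPM (counts scaled to library size). Osm itself had a log2 fold change of -0.02 (edgeR's quasi-likelihood test, adjusted p = 0.973). Ly6g was at or under the floor in every library (3, 0 and 0 counts with anti-OSM, 3 in each anti-Ly6G library). The skin keratin genes Krt5 and Krt14 were abundant in both groups, at 4376 and 9671 TPM (a level per transcript length) in the anti-Ly6G group and 3677 and 6506 TPM in the anti-OSM group.

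Glycolysis splits glucose into pyruvate in the cytosol, and lactate dehydrogenase turns pyruvate into lactate so that the route can keep running when mitochondria take up less of it. Proliferating keratinocytes and activated immune cells are known for high glucose uptake and lactate output. HIF-1, a dimer of the oxygen-regulated HIF-1α (gene Hif1a) and ARNT, binds short DNA elements with the core ACGTG or GCGTG and is a textbook activator of many glycolytic genes. HIF-1α itself is controlled largely by protein stability, which RNA sequencing does not measure.

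The start sites of these genes are shown because the HIF core letters can be read in them. RefSeq promoter windows of GRCm38.p6 (mm10) run from 250 bases before a listed start of a gene to 50 after it. By symbol, 17 windows matched the 10 genes. A gene can have several listed starts, and some, such as that of Hif1a, lie inside the gene's span given below. Both strands were searched. ACGTG stood in at least 1 window of 9 of the 10 genes, the exception being Eno1, and in 11 of the 17 windows. It stood in 19.6% of all 32851 windows and in 21.8% of 27025 genes. The 10 genes had more windows per gene than all genes did. Some windows of a gene overlap, as for Aldoa, so a single site can count in more than 1 window. GCGTG stood in windows of 4 of the 10 genes, Eno1 among them, against 35.2% of all genes. CACGTG, the E-box letters that contain ACGTG on both strands, stood in 3 of the 10 (8.09% of all genes), and TTCNNNGAA, the letters of a STAT element, in 0 of the 10 (9.55% of all genes). These are letter matches in a fixed window, and no binding was measured. The 170 bases before a start are printed below for 6 of the 9 genes that were lower with anti-OSM and for Pfkfb3, which was not. Only starts with ACGTG in that stretch were printed. Not every such start was printed. Slc2a1 and 1 start of Pkm held 1 ACGTG each in their 170 bases and were left out, as was Eno1, which held none. The other listed start of Pfkfb3 held 1 ACGTG and was left out too. The other listed starts of Aldoa and Ldha held no ACGTG in their 170 bases. Each printed stretch is read 5′ to 3′ on the strand of the gene. ACGTG and GCGTG and their reverse complements CACGT and CACGC are in capitals.
Hk2 (chr6:82774455-82774624, minus strand): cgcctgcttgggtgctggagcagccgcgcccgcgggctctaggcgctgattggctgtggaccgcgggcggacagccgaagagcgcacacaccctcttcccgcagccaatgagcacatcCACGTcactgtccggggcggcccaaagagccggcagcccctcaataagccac
Aldoa (chr7:126799255-126799424, minus strand): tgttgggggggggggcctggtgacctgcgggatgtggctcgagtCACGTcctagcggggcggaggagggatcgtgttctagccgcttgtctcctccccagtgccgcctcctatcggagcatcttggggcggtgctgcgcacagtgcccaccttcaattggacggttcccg
Pgk1 (chrX:106186930-106187099, plus strand): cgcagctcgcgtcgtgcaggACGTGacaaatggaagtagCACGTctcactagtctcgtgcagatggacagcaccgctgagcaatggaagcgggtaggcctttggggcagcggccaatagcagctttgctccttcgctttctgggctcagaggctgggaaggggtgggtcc
Ldha (chr7:46845634-46845803, plus strand): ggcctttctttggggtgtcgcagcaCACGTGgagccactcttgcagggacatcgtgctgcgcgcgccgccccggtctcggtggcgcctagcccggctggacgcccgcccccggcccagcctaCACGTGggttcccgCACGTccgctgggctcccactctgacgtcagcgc
Slc16a3 (chr11:120948897-120949066, plus strand): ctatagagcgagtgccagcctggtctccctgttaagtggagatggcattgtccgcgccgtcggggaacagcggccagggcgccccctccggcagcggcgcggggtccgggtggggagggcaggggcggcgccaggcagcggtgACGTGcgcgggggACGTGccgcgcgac
Hif1a (chr12:73907697-73907866, plus strand): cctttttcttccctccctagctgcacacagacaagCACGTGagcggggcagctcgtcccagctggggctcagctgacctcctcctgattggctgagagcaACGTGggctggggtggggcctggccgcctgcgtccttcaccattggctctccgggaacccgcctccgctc
Pfkfb3 (chr2:11502091-11502260, minus strand): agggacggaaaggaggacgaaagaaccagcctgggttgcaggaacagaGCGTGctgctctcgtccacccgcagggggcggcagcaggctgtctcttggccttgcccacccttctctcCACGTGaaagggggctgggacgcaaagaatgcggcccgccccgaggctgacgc

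Matches were counted on both strands, so a CACGTG counts on each. In these stretches Ldha held 5 ACGTG matches and Hif1a 3. Pgk1, Slc16a3 and Pfkfb3 held 2 each, and Hk2 and Aldoa 1 each. The printed start of Pfkfb3, the gene that did not pass the test, held both ACGTG and GCGTG. So did the 170 bases before the start of Slc2a1, which was lower and is not printed. The other printed stretches held ACGTG only. Eno1, which was lower, held GCGTG and no ACGTG in its windows. Whether these letters bear on the values was not tested.

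With anti-OSM, 9 of the 10 genes were lower than with anti-Ly6G, and for each of the 9 every anti-OSM library lay below every anti-Ly6G library. Hif1a was lowest relative to anti-Ly6G, at 57.7% of the anti-Ly6G level, and Pkm closest, at 78.9%. Pfkfb3 did not pass and had the opposite sign. In the whole table, 6.27% of tested genes were called lower and 5.81% higher at an adjusted p of at most 0.05 (edgeR's quasi-likelihood test, Benjamini-Hochberg adjustment over 19915 genes). Groups did not overlap, with anti-OSM lower, for 17.3% of tested genes, and with anti-OSM higher for 17.7%. The median log2 fold change, anti-OSM over anti-Ly6G, was -0.46 over the 10 genes and 0.01 over all tested genes. In bulk tissue, fewer cells of a type and less RNA per cell cannot be told apart.

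**Figure D1:**
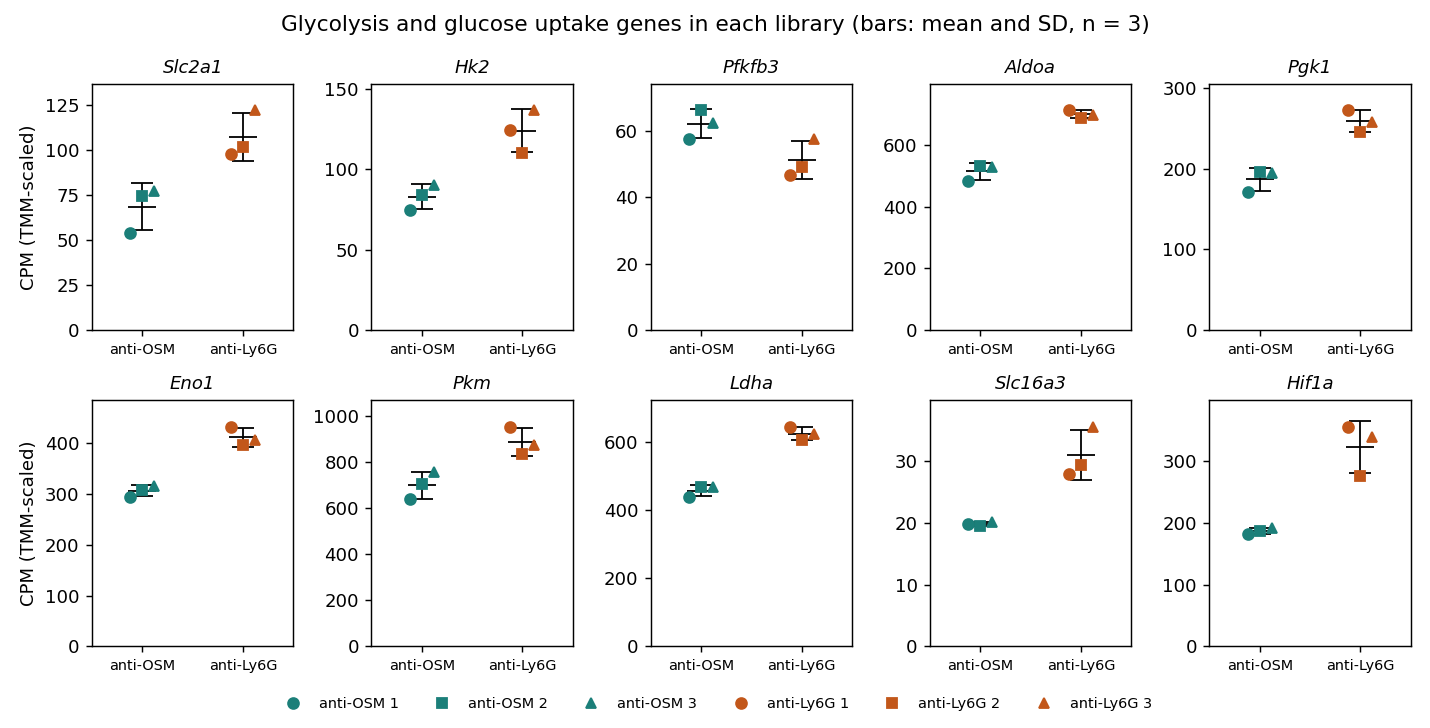
TMM-scaled CPM of each of the 10 genes (vertical axes, linear and starting at 0) in the 3 anti-OSM and 3 anti-Ly6G libraries, with the mean and SD of each group. The anti-OSM points lie below all anti-Ly6G points in every panel but that of Pfkfb3, where the groups overlap.

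Glucose uptake was represented by Slc2a1 (chr4:119108745-119137330), which encodes GLUT1, the main glucose transporter of keratinocytes. Slc2a1 was at 53.7, 74.4 and 77.4 CPM with anti-OSM and at 97.9, 102 and 122 CPM with anti-Ly6G. The groups did not overlap, but anti-OSM replicate 1 lay well below its group. The means were 68.5 ± 12.9 and 107 ± 13.1 CPM (SD, n = 3 each), which is a log2 fold change of -0.65 (SE 0.15, edgeR adjusted p = 0.0306). The call ended when any library other than anti-Ly6G replicate 3 was left out (adjusted p = 0.0538 to 0.0818), and held without that one (0.0470).

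Of the 13 other hexose transport genes listed, 11 were tested, 1 was lower and 1 higher. Slc2a4, the insulin-responsive GLUT4 of muscle and fat, was lower (log2 fold change -0.50, SE 0.08, edgeR adjusted p = 0.0102). Slc2a9, which encodes GLUT9, a urate transporter, was higher, at 9.42, 9.12 and 9.76 CPM with anti-OSM against 4.97, 6.05 and 6.74 (0.67, edgeR adjusted p = 0.0157). It no longer passed without anti-OSM replicate 1 or 3 (adjusted p = 0.0570 and 0.0637). Slc2a3, the high-affinity GLUT3 of neurons and leukocytes, had 0.30 (adjusted p = 0.219), and Slc2a8, an intracellular transporter, had 0.27 (adjusted p = 0.142). Txnip, whose product restrains glucose uptake, was among the most abundant genes of the list, at 804 ± 75.6 against 630 ± 73.4 CPM (SD, n = 3 each), and missed the threshold at 0.35 (edgeR adjusted p = 0.0688). It passed with DESeq2 (adjusted p = 0.0137) and without anti-Ly6G replicate 2 (0.0397), besides the fit with a replicate block.

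Hk2 (chr6:82725025-82774454) encodes hexokinase 2, the inducible enzyme that phosphorylates glucose and so traps it in the cell. It was at 74.5, 84.3 and 90.0 CPM with anti-OSM and at 125, 110 and 137 CPM with anti-Ly6G. The lowest anti-Ly6G library, replicate 2, was still above the highest anti-OSM library. The log2 fold change was -0.58 (SE 0.10, edgeR adjusted p = 0.0119). Hk1, the constitutive hexokinase, had -0.10 (adjusted p = 0.461), and Hk3, a hexokinase of myeloid cells, had 0.46 (adjusted p = 0.292), with overlapping groups for both. Hk3 passed as higher without anti-Ly6G replicate 3 (adjusted p = 0.0181). Hk2 made up 30.6 ± 1.33% of the summed TPM of 5 hexokinase genes with anti-OSM and 39.6 ± 3.54% with anti-Ly6G (SD, n = 3 each), again with no overlap.

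Pfkfb3 (chr2:11471430-11554071) encodes the enzyme that makes fructose 2,6-bisphosphate, the strongest activator of phosphofructokinase. It was at 57.5, 66.3 and 62.5 CPM with anti-OSM and at 46.6, 49.2 and 57.7 CPM with anti-Ly6G. Only anti-Ly6G replicate 3 reached into the range of the anti-OSM libraries. The log2 fold change was 0.28 (95% interval 0.07 to 0.49, edgeR adjusted p = 0.0893). Without anti-Ly6G replicate 3 it was 0.37 and passed (adjusted p = 0.0225), the opposite direction to the other 9 genes. None of the 4 other genes that make or remove fructose 2,6-bisphosphate passed in edgeR or in DESeq2, and 1 had an unadjusted p under 0.05: Pfkfb1 had -0.27, Pfkfb2 0.12 and Pfkfb4, a paralogue that responds to low oxygen, -0.27 (adjusted p = 0.0961). Tigar, a phosphatase of this metabolite, had -0.05. Pfkfb3 held 33.8 ± 1.01% of the summed TPM of the 4 PFKFB genes with anti-OSM and 28.1 ± 2.55% with anti-Ly6G (SD, n = 3 each), with no overlap.

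The next step, phosphofructokinase, is not among the 10 genes, and its subunits were read from the list of other glycolytic enzymes. Pfkm, the muscle subunit, had a log2 fold change of -0.46 (edgeR adjusted p = 0.0151), Pfkp, the platelet subunit, -0.38 (0.0134) and Pfkl, the liver subunit, -0.40 (0.0262, named after its value was seen). All 3 subunits were lower with anti-OSM, with no overlap between the groups. The Pfkm call ended without anti-OSM replicate 1, anti-OSM replicate 2 or anti-Ly6G replicate 1 (adjusted p = 0.0520 to 0.0595), the Pfkp call without anti-OSM replicate 1 or replicate 3 (0.0581 and 0.0610) and in limma on log2 TPM (0.205 with a pseudocount of 1), and the Pfkl call when any library but anti-Ly6G replicate 3 was left out (0.0512 to 0.0781).

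Of the enzymes downstream of phosphofructokinase, 4 belong to the 10 genes besides lactate dehydrogenase, and their log2 fold changes lay between -0.47 and -0.34. Aldoa (chr7:126795234-126800994) encodes aldolase A, which splits fructose 1,6-bisphosphate. It was at 484, 530 and 528 CPM with anti-OSM and at 713, 688 and 696 CPM with anti-Ly6G, and the gap between the groups was wider than the range within either. Its log2 fold change was -0.44 (SE 0.07, edgeR adjusted p = 0.00989). Pgk1 (chrX:106187100-106203699) encodes phosphoglycerate kinase 1, the first ATP-yielding step. It was at 171, 195 and 194 CPM against 273, 246 and 258 CPM, with a log2 fold change of -0.47 (SE 0.08, edgeR adjusted p = 0.0111). Eno1 (chr4:150236708-150248879) encodes enolase 1, which makes phosphoenolpyruvate. It was at 294, 308 and 317 CPM against 433, 397 and 406 CPM, with a log2 fold change of -0.43 (SE 0.07, edgeR adjusted p = 0.0101). For both genes anti-OSM replicate 1 was the lowest library and anti-Ly6G replicate 1 the highest.

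Pkm (chr9:59656576-59679372) encodes pyruvate kinase M, whose M1 and M2 forms come from alternative exons and are not separated by gene counts. It was at 639, 706 and 757 CPM with anti-OSM and at 955, 834 and 877 CPM with anti-Ly6G. The groups did not overlap, yet the ranges within them were wide next to the gap. The log2 fold change was -0.34 (SE 0.09, edgeR adjusted p = 0.0443). Leaving out any of the 6 libraries ended the call (adjusted p = 0.0548 to 0.148). Pklr, the other pyruvate kinase gene, had 0 counts in every library.

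Reads of near-identical copies could have moved between rows for Pgk1 and Eno1. The retrogene Pgk1-rs7 was listed with 6.85% to 8.12% as many counts as Pgk1 and had a log2 fold change of -0.50, and Eno1b was listed with 3.35% to 3.61% as many as Eno1 and had -0.39 (edgeR adjusted p = 0.0264), a call that ended when any of the 3 anti-OSM libraries or anti-Ly6G replicate 1 was left out (0.0773 to 0.0948). With the copies summed, both genes were called as before. Aldoa shares 25 exon bases with Fam57b on the opposite strand, a gene with 2.54% as many counts, and no source used here says whether strand entered the counting. Pkm shares 767 of its 5001 exon bases with Gm49759 on the same strand. Slc2a1 shares 105 of 3506 with Gm12868 on the opposite strand. Neither Gm49759 nor Gm12868 is among the listed genes, so their reads could not be separated.

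Of the 23 other glycolytic enzyme genes listed, 19 were tested, 9 were lower and 0 were higher, with a median log2 fold change of -0.29. The lower count fell to 1 without anti-OSM replicate 1, 2 without anti-OSM replicate 2, 4 without anti-OSM replicate 3, 3 without anti-Ly6G replicate 1 and 6 without anti-Ly6G replicate 2. Hkdc1, Pgk2 and Pklr were among those not tested because of low counts. Eno3, the muscle enolase, reached at most 131 CPM with anti-OSM and at least 167 CPM in any anti-Ly6G library, for a log2 fold change of -0.61 (SE 0.09, edgeR adjusted p = 0.00837). Pgam2, the muscle phosphoglycerate mutase, had -0.49 (adjusted p = 0.0228), and its widely expressed paralogue Pgam1 had -0.37 (0.0255, named after its value was seen). Pgam2 was lost without anti-OSM replicate 1, anti-OSM replicate 2 or anti-Ly6G replicate 1 (adjusted p = 0.0730 to 0.0849), and Pgam1 when any of the 3 anti-OSM libraries was left out (0.0659 to 0.0953). Gapdh, also named after its value was seen, had -0.32 (adjusted p = 0.0443) and did not pass once any library was left out (adjusted p = 0.0566 to 0.143). Tpi1, triose phosphate isomerase, named on the same footing, had -0.29 (edgeR adjusted p = 0.0533) and passed with DESeq2 (0.00970), under upper quartile scaling (0.0459), with a filter of a mean of at least 1 CPM (0.0449) and without anti-OSM replicate 3 (0.0498), besides the fit with a replicate block. Gpi1, phosphoglucose isomerase and named likewise, had overlapping groups and -0.05 (95% interval -0.21 to 0.11). Aldoc and Eno2, the brain-type paralogues, had 0.01 and 0.19 and did not pass. The sign of Aldoc changed with the processing.

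**Figure D2:**
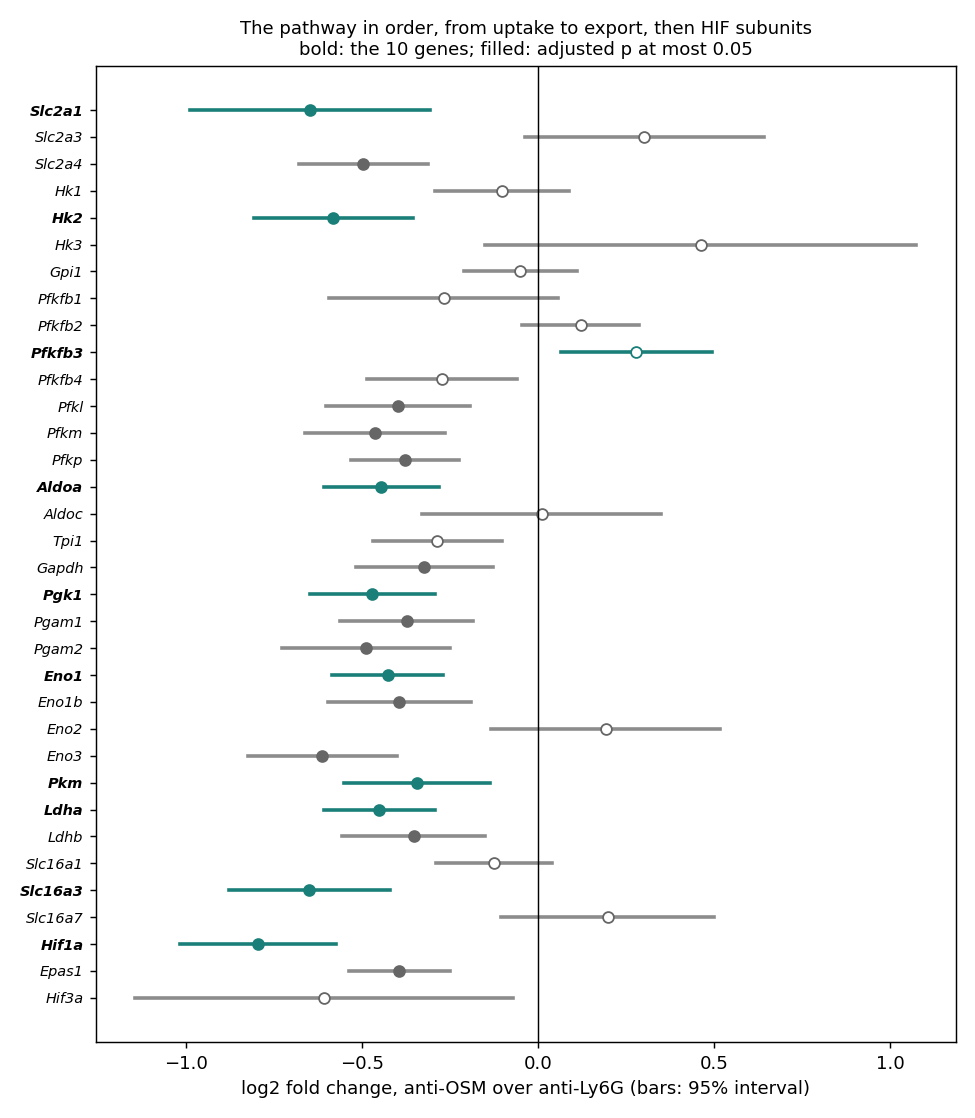
Log2 fold change, anti-OSM over anti-Ly6G (horizontal axis), with its 95% interval, for genes in pathway order from uptake to export and then the HIF α subunits; bold labels mark the 10 genes and filled points an adjusted p of at most 0.05. The 9 lower genes lie between -0.79 (Hif1a) and -0.34 (Pkm), Pfkfb3 lies at 0.28, and Gpi1 and Hk1 lie near 0.

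Ldha (chr7:46842274-46855627) encodes the A subunit of lactate dehydrogenase, which favours lactate formation. It was at 439, 469 and 468 CPM with anti-OSM and at 647, 608 and 624 CPM with anti-Ly6G. The gap between the groups was several times the spread within them. The log2 fold change was -0.45 (SE 0.07, edgeR adjusted p = 0.00872). Ldhb, the subunit of oxidative tissues, had -0.35 (adjusted p = 0.0377), so both subunits were lower, and Ldha held 89.9% and 90.6% of the summed lactate dehydrogenase TPM in the anti-OSM and anti-Ly6G groups with overlapping ranges. Leaving out any library ended the Ldhb call (adjusted p = 0.0590 to 0.106), as did limma on log2 TPM (0.0611 with a pseudocount of 1).

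Slc16a3 (chr11:120948484-120959000) encodes MCT4, the transporter that exports lactate from highly glycolytic cells. It was at 19.7, 19.4 and 20.1 CPM with anti-OSM and at 27.9, 29.3 and 35.6 CPM with anti-Ly6G. The anti-OSM libraries lay close together (SD 0.339 CPM, n = 3), while anti-Ly6G replicate 3 stood above its group. The log2 fold change was -0.65 (SE 0.10, edgeR adjusted p = 0.00901). Of the 4 other lactate transport genes tested none passed in edgeR or in DESeq2, and 1 had an unadjusted p under 0.05: Slc16a1, which encodes MCT1, had -0.12 (95% interval -0.29 to 0.04), Slc16a7 (MCT2) 0.20, and the chaperones Bsg and Emb -0.08 and 0.23. Emb passed as higher without anti-Ly6G replicate 3 (adjusted p = 0.0376). Slc16a3 held 24.9 ± 0.906% of the summed TPM of the 4 monocarboxylate transporter genes with anti-OSM and 33.3 ± 3.06% with anti-Ly6G (SD, n = 3 each).

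Hif1a (chr12:73901324-73947554) had the smallest p of the 10 genes. It was at 182, 187 and 191 CPM with anti-OSM and at 356, 276 and 339 CPM with anti-Ly6G. The anti-OSM libraries were close together, and the lowest anti-Ly6G library, replicate 2, was far above them. The means were 187 ± 4.46 and 324 ± 42.2 CPM (SD, n = 3 each), a log2 fold change of -0.79 (SE 0.10, 95% interval -1.02 to -0.57, edgeR adjusted p = 0.00390). It was called under each of the 18 alternatives tried, with a log2 fold change between -0.90 and -0.72. Gm15283, which overlaps it on the opposite strand, had 0 counts. Gm49321, on the same strand, shares 148 of the 5896 exon bases of Hif1a. Gm49321 is not among the listed genes, so its reads could not be separated.

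Of 10 other genes of HIF subunits and oxygen sensing, 1 was lower and 1 higher. Epas1, which encodes the related HIF-2α, was at 116, 115 and 113 CPM against 143, 158 and 151 CPM, a log2 fold change of -0.39 (SE 0.06, edgeR adjusted p = 0.0101). Cited2, whose product competes with HIF-1α for the coactivator p300, was at 59.5, 58.2 and 58.7 CPM against 38.5, 42.6 and 40.9 CPM, a log2 fold change of 0.53 (SE 0.06, edgeR adjusted p = 0.00383). Hif3a, at low counts, had -0.61 (adjusted p = 0.130), and Hif1an, the asparagine hydroxylase that inhibits HIF, had -0.16 (adjusted p = 0.255). Hif1a held 63.6% to 66.3% of the summed TPM of the 3 HIF α genes with anti-OSM, against 66.5% to 74.5% with anti-Ly6G.

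Of 25 other hypoxia response genes, 1 was lower and 0 were higher, a share near that of all tested genes, with a median log2 fold change of -0.05. DESeq2 called 4 of them lower and 0 higher. At an unadjusted p under 0.05 in edgeR, 6 were lower and 1 higher. Groups did not overlap for 7 lower and 2 higher genes, against 17.3% and 17.7% of all tested genes. The summed level was 1363 to 1416 TPM with anti-OSM and 1508 to 1612 TPM with anti-Ly6G. The gene called lower in edgeR was Mif, a cytokine-like tautomerase, at -0.47 (SE 0.07, edgeR adjusted p = 0.00932). Car12, a carbonic anhydrase, had -0.50 (adjusted p = 0.0801), Ero1l, an oxidase of the endoplasmic reticulum, -0.24 (0.0647), and Mxi1, an antagonist of MYC, 0.23 (0.0894). Car12 (adjusted p = 0.00963) and Ero1l (0.0313) were among those DESeq2 called. Pfkfb4 and Slc2a3, given above, also belong to this list.

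The genes whose pattern over the 6 libraries was nearest to that of Hif1a, by Pearson correlation of log2 CPM among 11180 genes with a mean of at least 10 CPM, were Mthfd2 (r = 0.996), Ubash3b (0.994) and Timm17a (0.993). Since the 6 points fall into the study's groups, these values describe likeness only. Mthfd2, a mitochondrial enzyme of folate metabolism, had a log2 fold change of -1.04 (edgeR adjusted p = 0.00247), Ubash3b, a phosphatase, -0.35 (0.0262), and Timm17a, part of the mitochondrial inner membrane import complex, -0.25 (0.0537).

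**Figure D3:**
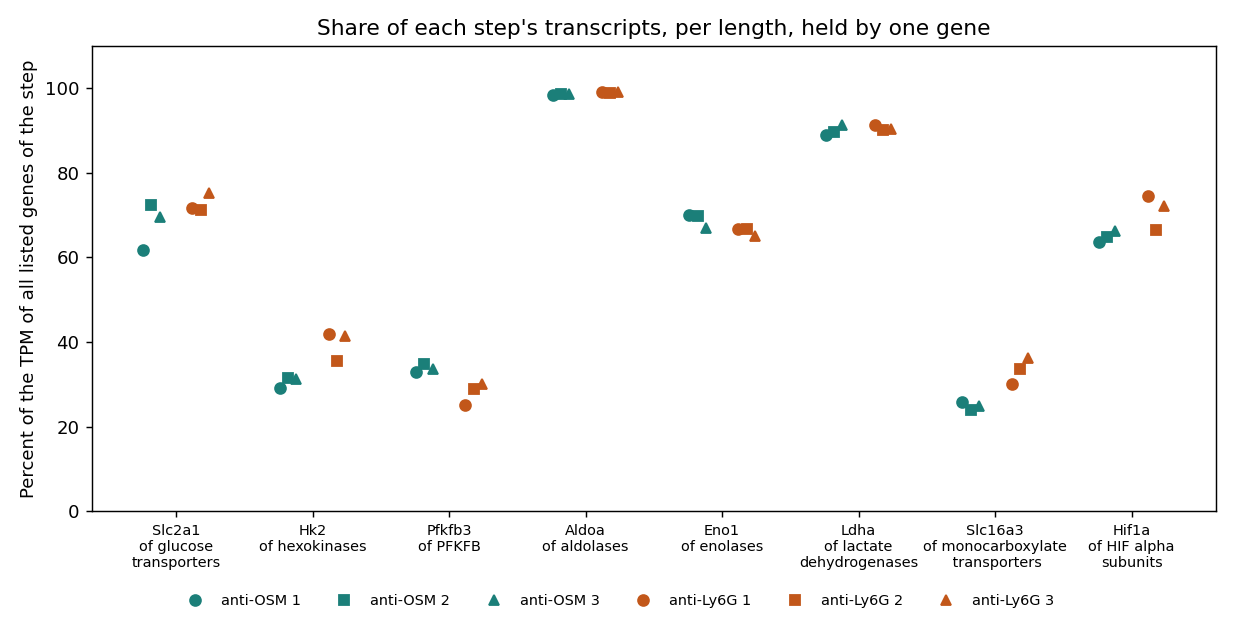
Percent of the summed TPM of all listed genes of a step (vertical axis) that is held by the gene named below it, in each of the 6 libraries. Hk2 and Slc16a3 take a smaller share in every anti-OSM library than in any anti-Ly6G library, Pfkfb3 a larger one, and Ldha an overlapping one.

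Levels per transcript length were read from the deposited TPM. With anti-Ly6G the order was Aldoa (968 TPM), Ldha (809), Pkm (780), Eno1 (486), Pgk1 (297), Hif1a (149), Slc2a1 (87.7), Hk2 (47.3), Slc16a3 (26.5) and Pfkfb3 (21.5). With anti-OSM Pkm (603 TPM) came before Ldha (583), and Pfkfb3 (25.8) before Slc16a3 (16.2). Ldha and Pkm ranged over 807 to 814 and 737 to 820 TPM with anti-Ly6G and over 568 to 593 and 565 to 648 TPM with anti-OSM, so neither group puts these neighbours in an order beyond their spread. Slc16a3 and Pfkfb3 overlapped with anti-Ly6G, at 22.8 to 30.9 and 18.7 to 24.4 TPM, and did not overlap with anti-OSM, at most 16.7 TPM for Slc16a3 and at least 24.4 for Pfkfb3. The other neighbours did not overlap within a group. The 10 genes summed to 2659 ± 104 TPM with anti-OSM and 3672 ± 62.5 TPM with anti-Ly6G (SD, n = 3 each).

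Anti-OSM replicate 1 was the lowest of its group for 9 of the 10 genes, and anti-Ly6G replicate 2 for 7. Anti-Ly6G replicate 1 was the highest of its group for 6 genes and replicate 3 for 4. On the first principal component of all tested genes (43.6% of the variance), anti-Ly6G replicate 3 lay nearer to the anti-OSM libraries (-14.9) than the other anti-Ly6G libraries did (-38.6 and -39.3).

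Markers of several cell types moved with the 10 genes. Of 20 skeletal muscle markers 15 were lower and 0 higher, and their summed level was 5822 to 6909 TPM with anti-OSM and 8464 to 9481 TPM with anti-Ly6G, no marker being at 0. The muscle list includes Eno3, and Slc2a4, Pfkm and Pgam2 are likewise muscle forms. Of 9 activated keratinocyte markers 4 were lower and 0 higher, with Krt6a at -1.78 (edgeR adjusted p = 0.0111), and the sums were 3200 to 5978 against 8067 to 11745 TPM. Of 10 keratinocyte markers 4 were lower and 0 higher, and the sums were 20564 to 24282 against 25481 to 31904 TPM. Macrophage markers had 3 of 10 higher and 0 lower (3523 to 4049 against 1908 to 3219 TPM), and fibroblast markers 5 of 8 higher and 0 lower (5964 to 6555 against 3744 to 5118 TPM). None of 8 tested neutrophil, 7 endothelial, 5 tested red cell and 6 adipocyte markers passed in either direction in edgeR. At an unadjusted p under 0.05, 2 neutrophil and 1 endothelial markers were higher, 1 neutrophil and 1 adipocyte markers were lower, and 0 red cell markers were either. The higher neutrophil markers were Retnlg (log2 fold change 2.06, edgeR adjusted p = 0.112) and Csf3r (0.95, 0.127). The lower one was Lcn2 (-0.47, edgeR adjusted p = 0.0715). DESeq2 called 1 neutrophil marker lower and 1 higher, and 0 of the other 3 lists. Neutrophil marker sums were 365 to 514 TPM with anti-OSM and 318 to 524 TPM with anti-Ly6G, although this list shares S100a8 and S100a9 with the activated keratinocyte list. S100a8 and S100a9 averaged 143 and 167 TPM with anti-OSM and 156 and 166 TPM with anti-Ly6G. The neutrophil list's members Ly6g and Ngp were at or near 0 counts, and Ngp and the red cell marker Slc4a1 were at 0 in all 3 anti-OSM libraries. The part of these cell types in the values of the 10 genes was not tested. With TMM factors computed without the muscle markers, 9 of the 10 genes were again called lower. That fit changes only the scaling, and the median log2 fold change of the 10 genes went from -0.4596 to -0.4601. It does not measure the part of muscle in these genes. The muscle count was 7 without anti-OSM replicate 1 and 9 without anti-OSM replicate 2, and without each library in turn the keratinocyte count ranged from 1 (anti-OSM replicate 1 or 3) to 5, the activated keratinocyte count from 2 (anti-OSM replicate 1, anti-OSM replicate 2 or anti-Ly6G replicate 1) to 5, the macrophage count from 0 (anti-Ly6G replicate 2) to 9 (anti-Ly6G replicate 3) and the fibroblast count from 1 (each anti-OSM library) to 8 (anti-Ly6G replicate 3).

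**Figure D4:**
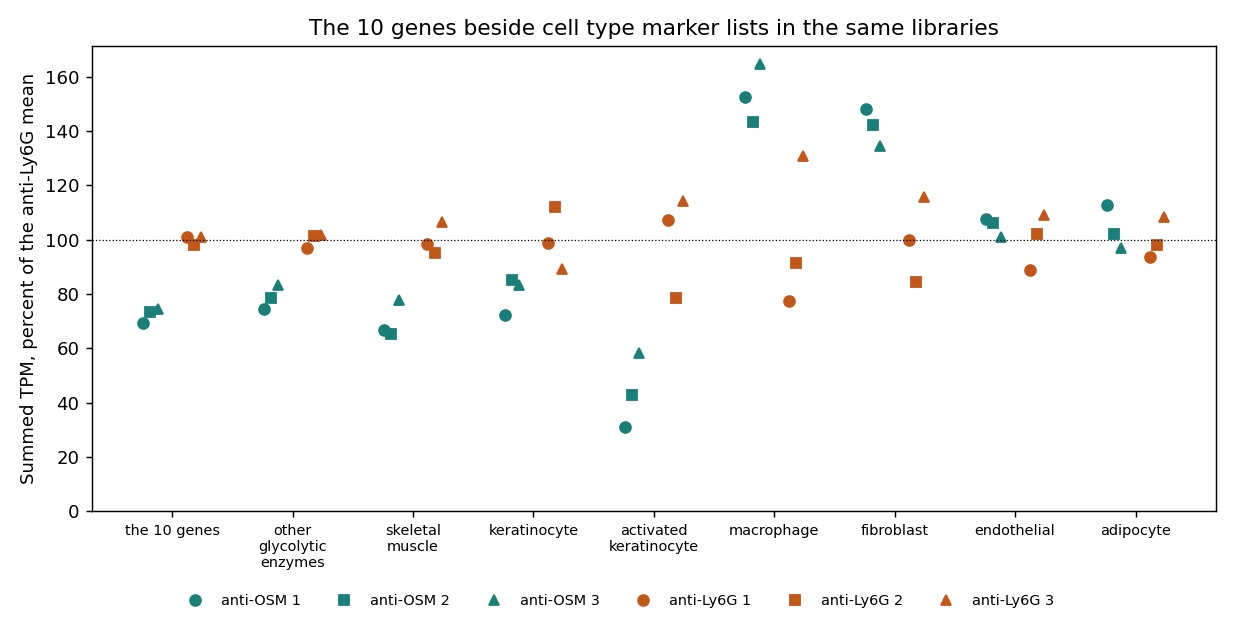
Summed TPM of gene lists in each library as a percent of the anti-Ly6G mean (vertical axis, dotted line at 100). The 10 genes lie at 69.2% to 74.6% in the anti-OSM libraries, the skeletal muscle markers at 65.4% to 77.6%, the activated keratinocyte markers at 31.1% to 58.1%, and the macrophage and fibroblast markers above 100.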

How the data were processed

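Ear skin RNA of 6 libraries, 3 anti-OSM and 3 anti-Ly6G, was compared. Per the file headers, the columns of each library hold the read count, the TPM and the FPKM of every gene. The deposited counts are whole numbers. The aligner's settings, the assignment of reads to genes and the use of strand are not given in the sources used. The deposited FPKM values were used only to check the columns: within each library TPM was a constant multiple of FPKM. The authors' TPM values served as levels per transcript length, since they sum to the same total in each library. Tools in the submitters' processing notes, given without roles, include HISAT2 2.1.0, StringTie 2.1.3b, edgeR 3.40.2, Trimmomatic 0.38, SAMtools 1.9 and bcl2fastq 2.20.0, and the builds include mm10.

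Counts were tested with edgeR 4.0.16 in R 4.3.3 (filterByExpr, TMM scaling, robust quasi-likelihood fit, 2-sided F-test, no covariate). P-values were adjusted by Benjamini-Hochberg over all 19915 tested genes, with a threshold of 0.05. CPM uses TMM-scaled library sizes. Standard errors were obtained as fold change over the root of F, and 95% intervals from the fitted degrees of freedom. The test was run on simulated data first. Intervals and the floor of 3 counts cover counting error or library spread only. Alternatives were DESeq2 1.42.0, limma 3.58.1 (voom, and trend on log2(TPM + 1) or log2(TPM + 0.1)), other scalings and filters (none, or a mean of at least 1 CPM), a non-robust fit, a replicate block, and leaving out each library. Summing near-identical copies was added after seeing the data.

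The 10 genes and all lists were chosen with earlier results of these data known. Named genes are the 10, up to 4 of each pathway list with the smallest p, fixed paralogues, Osm and Ly6g, and the 3 genes nearest in pattern to the gene with the smallest p, except where named after their values were seen. Some genes of the lists are not reported here by name. Gene positions and promoter windows are from RefSeq, GRCm38.p6.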

Additional observations from a re-analysis of the deposited data

How the results depend on the processing

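Under all 18 alternatives tried, Hk2, Aldoa, Pgk1, Eno1, Ldha, Slc16a3 and Hif1a were called lower, and Slc2a1 and Pkm kept their direction. Between 7 and 8 of the 10 genes were lower without each library in turn, and 0 to 1 higher, the 1 being Pfkfb3 without anti-Ly6G replicate 3. Over all genes, leaving out a library gave 420 to 1447 lower and 240 to 1545 higher (1249 and 1157 with all libraries), with fewer samples in each such fit. Of the other pathway genes, 21 were lower and 3 higher, and without each library 6 (anti-OSM replicate 1) to 21 were lower and 2 to 5 higher; without anti-OSM replicate 2 or 3 the lower count was 7 and 11, without anti-Ly6G replicate 1 it was 10 and without replicate 2 it was 14. All genes higher numbered 663 in limma on log2(TPM + 1) and 692 on log2(TPM + 0.1), and the cause was not tested. Reversed signs were those of Aldoc, at -0.00015 on log2(TPM + 1), -0.00066 with no filter, and -0.12 (anti-Ly6G replicate 1), -0.07 (anti-OSM replicate 1) and -0.0048 (anti-Ly6G replicate 3) with a library left out, the range over all 6 being -0.12 to 0.17, and of Tigar, at 0.021 without anti-OSM replicate 1, the range over all 6 being -0.11 to 0.021. The cause was not tested, and neither gene passed in any of these.

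With the replicate number as a block, 8 of the 10 genes were lower, Pkm being lost (edgeR adjusted p = 0.0675), and 1275 genes were lower and 1325 higher over the table. Of the other named genes, Gapdh (adjusted p = 0.0673) and Pdha1 (0.0758) were lost under the block and Tpi1 (0.0465) and Txnip (0.0378) passed. Same-numbered libraries deviated together with r = 0.012, 0.037 and 0.124 for replicates 1, 2 and 3. Over all pairs of an anti-OSM with an anti-Ly6G library, r ran from -0.117 to 0.124. With 3 libraries in each group, these values cannot show whether the numbers pair the libraries. Anti-OSM replicate 1 correlated best with anti-Ly6G replicate 2 (r = 0.081). Depth limits Ly6g, Hkdc1, Slc2a2 and Slc16a8, at 9 counts or fewer in every library.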

Other observations

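Routes that branch from glycolysis were read from lists of their own. Glycogen metabolism had 4 of 13 genes lower with anti-OSM and 0 higher, and 1 to 4 lower with a library left out (1 without anti-OSM replicate 2, 2 without anti-OSM replicate 1). Pygm, the muscle glycogen phosphorylase that releases glucose 1-phosphate, was at 72.5, 83.2 and 82.0 CPM with anti-OSM and at 133, 134 and 134 CPM with anti-Ly6G, giving a log2 fold change of -0.76 (SE 0.07, edgeR adjusted p = 0.00177). Phkg1, the muscle subunit of phosphorylase kinase, had -0.82 (adjusted p = 0.0149), and Gys1, the muscle glycogen synthase, -0.47 (0.0198). Genes of both breakdown and synthesis were therefore lower. Skeletal muscle markers moved with them (15 of 20 lower, summed level 5822 to 6909 against 8464 to 9481 TPM), and their part in these values was not tested. The Gys1 call ended when anti-OSM replicate 1, anti-OSM replicate 2 or anti-Ly6G replicate 2 was left out (adjusted p = 0.0545 to 0.0780). The Phkg1 call ended when anti-OSM replicate 2 (0.0502) or anti-Ly6G replicate 1 (0.0528) was left out.

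Gluconeogenesis had 3 of 6 tested genes lower and 0 higher. Fbp1, the fructose bisphosphatase of liver and kidney, was at 1.34, 1.45 and 0.999 CPM with anti-OSM and at 5.36, 6.46 and 2.45 CPM with anti-Ly6G, giving a log2 fold change of -1.91 (SE 0.35, edgeR adjusted p = 0.0166). Fbp2, the muscle form, was at 2.07, 1.32 and 2.00 CPM against 6.86, 6.68 and 2.75 CPM (-1.60, SE 0.36, edgeR adjusted p = 0.0318). For both, anti-Ly6G replicate 3 was well below its group, and leaving out any library other than that one ended the Fbp2 call (adjusted p = 0.0821 to 0.103), as did limma-voom (0.0583), while the Fbp1 call was lost without each anti-OSM library and without anti-Ly6G replicate 1 (0.0539 to 0.0678). Pcx, pyruvate carboxylase, had -0.48 (adjusted p = 0.0254) and did not pass when any library other than anti-OSM replicate 2 or anti-Ly6G replicate 3 was left out (0.0614 to 0.0762). Pck2, the mitochondrial PEP carboxykinase, had -0.22 (adjusted p = 0.164).

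At the entry of pyruvate into mitochondria, 2 of 14 genes were lower and 1 higher. Dlat, a core subunit of the complex, had -0.20 (adjusted p = 0.0871). Pdp1 and Pdp2, phosphatases that activate pyruvate dehydrogenase, had opposite signs, at 0.48 (adjusted p = 0.0103) and -0.54 (0.0207). Pdha1, the catalytic subunit, had -0.24 (edgeR adjusted p = 0.0480) and was lost under upper quartile scaling, with no filter, with a non-robust fit, with a replicate block and when any library but anti-Ly6G replicate 2 was left out (adjusted p = 0.0501 to 0.169). Pdp2 did not pass once any anti-OSM library or anti-Ly6G replicate 2 was left out (0.0603 to 0.0731) or in limma on log2(TPM + 1) (0.0545). None of 8 pentose phosphate genes passed in edgeR, although 4 lower and 1 higher had an unadjusted p under 0.05 and DESeq2 called 2 lower. The closest was Pgd, phosphogluconate dehydrogenase, at -0.22 (adjusted p = 0.0553), 1 of those that DESeq2 called (0.0107). G6pdx, which opens the route, had -0.21 (adjusted p = 0.107), Rpia -0.24 (0.0846) and Tkt -0.20 (0.0929).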
